A study of Mus musculus with 4 samples.

Results

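A set of 7 granulocyte genes was followed through arrays of memory and naive CD8 T cells: the calprotectin subunits S100a8 and S100a9, and the granule genes Camp, Ctsg, Mpo, Lcn2 and Ltf. All probe sets annotated with 1 of these 7 symbols were taken, from 6137 genes named on the arrays. They numbered 9, with 3 on chip A and 6 on chip B of an Affymetrix mouse pair, and S100a8 was the 1 gene read on both chips. Memory cells were B6.2.16 CD8 T cells, whose transgenic T cell receptor recognises male HY antigen. Splenocytes of B6.2.16 females without RAG1 had been cultured with HY peptide for 4 days, the resulting effectors were transferred into RAG1-deficient female hosts, and the cells were taken back from spleens and lymph nodes with magnetic beads after 200 days at a purity stated as above 80%. Naive B6.2.16 CD8 T cells came from lymph nodes of B6.2.16 females, RAG1-deficient as well, at a purity stated as above 85%. Donors and hosts all lacked RAG1, without which no other T cells and no B cells develop, whereas the myeloid cells of such animals remain. The age of the mice and any pooling are not given in the labels.

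Granulocytes carry much of their antimicrobial protein ready made, in granules laid down in turn as the cell matures. Azurophil granules, which hold myeloperoxidase and cathepsin G, are filled at the promyelocyte stage, and their transcripts fade afterwards. Specific granules, with lactoferrin, lipocalin-2 and cathelicidin, are filled later, and the calprotectin subunits S100A8 and S100A9 accumulate in the cytosol of maturing and mature cells. CD8 T cells are not a usual source of these transcripts, and in bulk RNA fewer cells of a type cannot be told apart from less RNA per cell.

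The 250 bases upstream of the start site are shown for 4 of the genes, because these genes mark the range of the values below: the calprotectin pair, Camp, which had the only ratio below 0, and Mpo, which was read at noise level. The sequences are from RefSeq, build GRCm38.p6, which held all 7 genes. They are written 5′ to 3′ along the transcribed strand, and capitals mark matches to 3 motifs on either strand. The C/EBP motif was searched as TTNNGNAA. The motif of the myeloid factor PU.1 was searched as GAGGAA. The TATA box was searched as TATAAA. The window of S100a8 is chr3:90668821-90669070 on the plus strand, that of S100a9 chr3:90695722-90695971 on the minus strand, that of Camp chr9:109849457-109849706 on the minus strand and that of Mpo chr11:87793534-87793783 on the plus strand.
S100a8: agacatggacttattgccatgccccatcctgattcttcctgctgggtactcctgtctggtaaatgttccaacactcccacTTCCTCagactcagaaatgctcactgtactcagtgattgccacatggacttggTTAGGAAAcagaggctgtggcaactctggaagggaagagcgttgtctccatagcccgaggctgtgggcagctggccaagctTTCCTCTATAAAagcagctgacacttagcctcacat
S100a9: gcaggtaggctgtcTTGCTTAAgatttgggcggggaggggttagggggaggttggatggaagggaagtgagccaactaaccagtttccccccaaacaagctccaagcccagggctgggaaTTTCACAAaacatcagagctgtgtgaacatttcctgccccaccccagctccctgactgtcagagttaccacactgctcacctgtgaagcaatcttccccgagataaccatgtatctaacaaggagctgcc
Camp: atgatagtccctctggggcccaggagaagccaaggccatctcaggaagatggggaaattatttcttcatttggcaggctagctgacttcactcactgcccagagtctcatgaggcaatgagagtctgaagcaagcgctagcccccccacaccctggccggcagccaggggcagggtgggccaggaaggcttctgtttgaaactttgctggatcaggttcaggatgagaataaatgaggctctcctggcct
Mpo: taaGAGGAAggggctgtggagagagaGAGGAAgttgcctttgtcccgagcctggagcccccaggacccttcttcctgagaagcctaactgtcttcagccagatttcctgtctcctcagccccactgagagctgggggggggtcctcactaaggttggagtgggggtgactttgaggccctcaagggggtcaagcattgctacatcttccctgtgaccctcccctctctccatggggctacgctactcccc

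The C/EBP letters were found in the windows of 4 of the 7 genes (S100a8, S100a9, Lcn2 and Ltf), against 36.9% of 27025 windows of the same length. The PU.1 letters were found in 5 of 7 (S100a8, Ctsg, Mpo, Lcn2 and Ltf), against 23.1% of all windows, and the TATA letters in 2 of 7 (S100a8 and Ctsg), against 13%. In S100a8 the match TATAAA began at position -30 from the start site, directly after a PU.1 match, TTCCTC, at -36. The TATA match of Ctsg, TTTATA on the other strand, began far from the start site, at -237. Ltf held the C/EBP matches TTAAGGAA and TTGGGCAA, and Lcn2 held TTGCTCAA. The Camp window held none of the 3 motifs. A site can match both the C/EBP and the PU.1 letters, but no matches overlapped in these windows. These are matches of letters and show no binding.

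Each group had 1 array per chip, so there is no spread between samples, no test and no p-value, and every difference below is between 2 arrays. Signals are intensities, of which 34.0% (memory) and 35.6% (naive) were below 0 on the B chip. On that chip both arrays were scaled to 1 trimmed mean, and signals under 423 (the noise floor) were set to it before a ratio was formed. A probe set counted as called when its ratio reached 2-fold and the brighter of its arrays reached 2 times the floor. Memory and naive values correlated across 6540 B-chip probe sets with a Spearman coefficient of 0.85, and across 6529 A-chip probe sets with a coefficient of 0.10. These coefficients describe probe sets, which are not replicates. Because the naive A values hardly follow the listed genes, only the memory array is read on the A chip, as deposited, against its own noise limit of 184. Of the T cell markers, 5 of 6 were above the floor on 1 B array or both, and 1 of 2 above the limit on the memory A array. The signalling chain Cd3d read 959 in memory and 1115 in naive, and Thy1 2847 in memory and 6185 in naive. Cd3g and Zap70 were under the floor in memory (254 and 221) and above it in naive (502 and 424). The coreceptor chain Cd8a read 498 in memory and 352, under the floor, in naive.

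Of the 5 member genes on the B chip, 4 (S100a8, Lcn2, Ltf and Camp) were above the floor in both the memory and the naive preparation, and none of the 6 probe sets was called. The memory cells came from spleens and lymph nodes and the naive cells from lymph nodes alone, so tissue and group cannot be told apart. Of all 1056 B-chip probe sets above the floor on 1 array or both, 17% were called, 67 (6.34%) higher and 113 (10.7%) lower in memory. Of the 522 whose brighter array reached 2 times the floor, 34.5% were called, and 4 of the 6 member probe sets met that condition. Of the 6, 5 were above the floor on 1 array or both, against 16.1% of all B-chip probe sets and 26.2% of the named B-chip genes. All 5 were above it on both arrays. Among these 5, the log2 ratio was above 0 for 4 and below 0 for 1, with a median of 0.18, beside -0.12 for all probe sets above the floor. The split of all calls depended on the scaling: 37.2% of them were higher in memory as given here, 50.8% with median-ratio scaling, 57.8% with quantile and 58.3% with intensity-dependent (lowess) normalization.

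S100a8 encodes the smaller subunit of calprotectin, a calcium- and zinc-binding complex that starves microbes of metal. Its B-chip probe set read 3252 in memory and 2462 in naive, a log2 ratio of 0.40, or 1.32-fold. Both arrays were far above the floor, and the higher one was memory. With quantile normalization the ratio became 1.03, just past 2-fold, and with lowess 0.85, so whether S100a8 counts as higher rested on the scaling. On the memory A array 2 of the 3 member probe sets were above the noise limit, against 26.7% of all its probe sets. A second S100a8 probe set read 2483 there, 13.5 times the limit. S100a9, the partner subunit, was read on the A chip alone, with 2162 in memory, 11.8 times the limit. Both calprotectin transcripts were thus well above noise in the memory preparation, and S100a8 was so in the naive preparation too.

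Lcn2 encodes lipocalin-2, a specific-granule protein that binds bacterial iron carriers, and 2 probe sets read it. The brighter probe set (x81627_s_at) had 2157 in memory and 1939 in naive, a log2 ratio of 0.15. The dimmer probe set had 668 in memory and 500 in naive, a log2 ratio of 0.42. Both were slightly higher in memory and neither reached 2-fold, although the dimmer was too weak to be called at that size. The iron-binding granule protein lactoferrin, Ltf, read 1246 in memory and 1098 in naive, for a log2 ratio of 0.18. Its ratio stayed between 0.12 and 0.33 under all scalings and floors tried, and those of the Lcn2 probe sets between 0.15 and 0.30 (brighter) and between 0.42 and 0.57 (dimmer), except that the dimmer one lay under the doubled floor and had no ratio there.

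Camp encodes the precursor of the antimicrobial peptide cathelicidin, also of specific granules. It read 3180 in memory and 5061 in naive, a log2 ratio of -0.67, or 1.59-fold higher in naive. Camp was the only 1 of the 5 with the naive array on top, and the direction did not hold: it turned to 0.20 with quantile and 0.25 with lowess normalization. The lowess trend was fitted over the probe sets above the floor on both arrays. At the brightness of Camp it lay at -0.92, and at that of S100a8 at -0.45. For the brighter Lcn2 probe set the trend was -0.13, for the dimmer -0.056, and for Ltf 0.0026. The lowess scaling thus moved the bright S100a8 and Camp most. It moved the brighter Lcn2 probe set from 0.15 to 0.29, and hardly the dimmer one and Ltf.

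**Figure D1:**
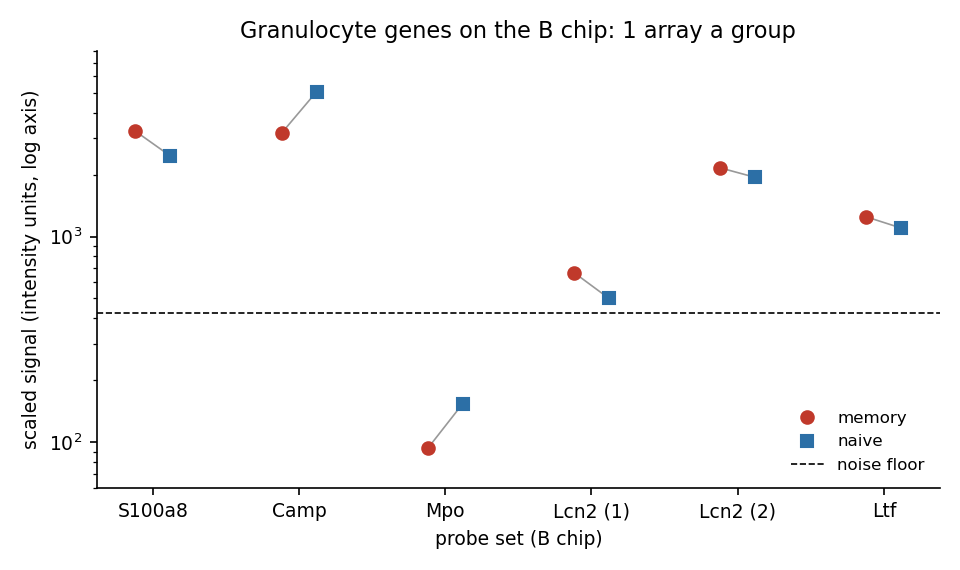
Scaled signal (intensity units, log axis) of the 6 B-chip probe sets in memory (circles) and naive (squares), with 1 array a group and the noise floor of 423 dashed. Lcn2 (1) is the dimmer and Lcn2 (2) the brighter Lcn2 probe set. Of the 6, 5 lie above the floor on both arrays with their 2 points close together, Camp has the naive point on top, and Mpo lies under the floor on both.

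**Figure D2:**
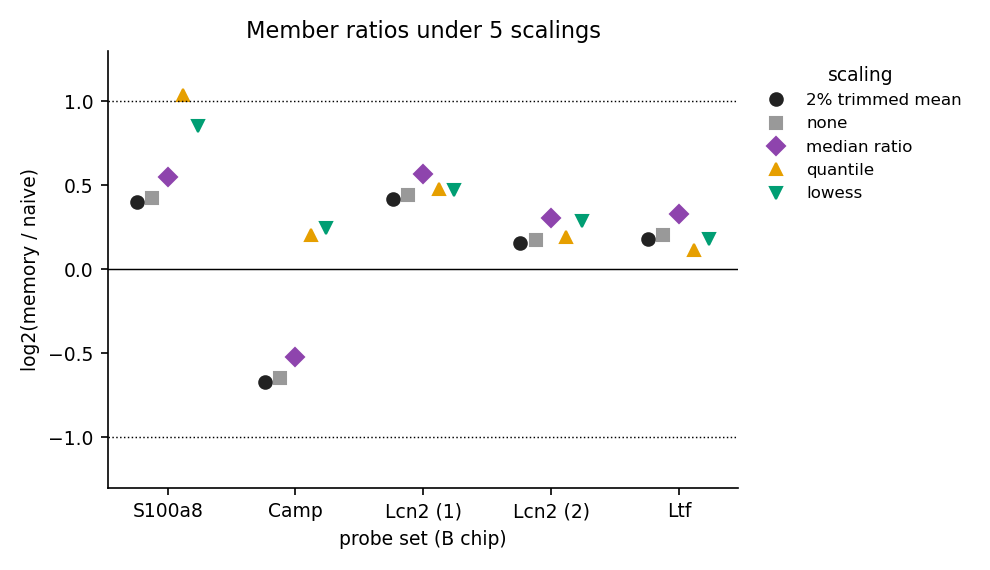
Log2 ratio of memory to naive for the 5 B-chip probe sets above the floor, under 5 scalings, with 2-fold dotted. The Lcn2 and Ltf ratios stay within a narrow range above 0, S100a8 reaches 1.03 with quantile normalization, and Camp changes sign with quantile and lowess.

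The members of azurophil granules, Mpo and Ctsg, were not above noise. Mpo, which encodes the peroxidase that makes hypochlorous acid, read 93.3 in memory and 154 in naive, both under the B-chip floor, so no ratio is given. Ctsg encodes cathepsin G, a serine protease of azurophil granules that mast cells also hold, and it read -108 in memory on the A chip. The further azurophil proteases, neutrophil elastase (Elane) and proteinase 3 (Prtn3), read 73 and 62 there, under the limit. None of these 4 genes was above the noise of an array read. Lyz2, which encodes lysozyme, a protein of azurophil and other granules that macrophages also make, read 2007 on the memory A array. Of 8 genes taken for specific and gelatinase granules, 7 were above noise on at least 1 array: Ltf, Camp, Lcn2, Ngp, Chil3, Hp and Mmp9. Mmp9 was so in memory alone, and Pglyrp1, which encodes a peptidoglycan-binding protein, was under the floor (342 in memory, 306 in naive). Orm1, an acute-phase protein gene whose product granulocytes also store, read 6 on the memory A array and is not among the 8. Of the same granule list, Ctsc and Gusb read 1163 and 169 there, and they are in neither the 4 nor the 8. The genes of both counts were put together after their values were seen, so the counts describe these genes and not the granules as such. For comparison, 26.2% of all named B-chip genes were above the floor on 1 array or both, and 29.5% of the 4775 named genes were above the limit on the memory A array. A probe set under the limit shows only that the transcript was not detectable here.

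Other genes of granulocytes were read from lists of granule proteins, oxidase subunits, receptors, cytosolic proteins, transcription factors and partners of the members. Of 83 genes in the 7 lists, members included, 24 had a probe set on the B chip, 13 of these were above the floor, 2 were called higher and 0 lower. The share called higher among all 462 named genes above the floor was 8.87%, and the share called lower was 8.66%. The median log2 ratio of the 13 was 0.21. The higher pair were haptoglobin, Hp, with 2032 in memory and 431 in naive (log2 ratio 2.24), and the decoy interleukin-1 receptor Il1r2, with 1058 in memory and 517 in naive (1.03). Haptoglobin binds free haemoglobin and is stored in specific granules. Both naive values were close to the floor, and with the floor doubled the ratios were 1.26 and 0.32.

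The other 7 were within 2-fold. Cebpb, a transcription factor of myeloid cells, read 1655 in memory and 863 in naive (log2 ratio 0.94, and 1.09 with median-ratio scaling). Cd14, a lipopolysaccharide coreceptor, read 2595 in memory and 1934 in naive, and Lrp1, a scavenger receptor that takes up lactoferrin, read 916 in memory and 607 in naive. The integrin chain Itgb2, shared by all leukocytes, read 2258 in memory and 1952 in naive. The gelatinase Mmp9 read 441 in memory and 298, under the floor, in naive. The GTPase Rac2, which activates the NADPH oxidase and is also made by T cells, read 3778 in memory and 6788 in naive, and its log2 ratio of -0.85 turned to 0.48 with quantile and 0.40 with lowess. Annexin A1, Anxa1, read 672 in memory and 1100 in naive. Of these 7, Rac2 and Anxa1 were the ones with the naive array on top, and like Camp, Rac2 changed sign with the scaling.

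**Figure D3:**
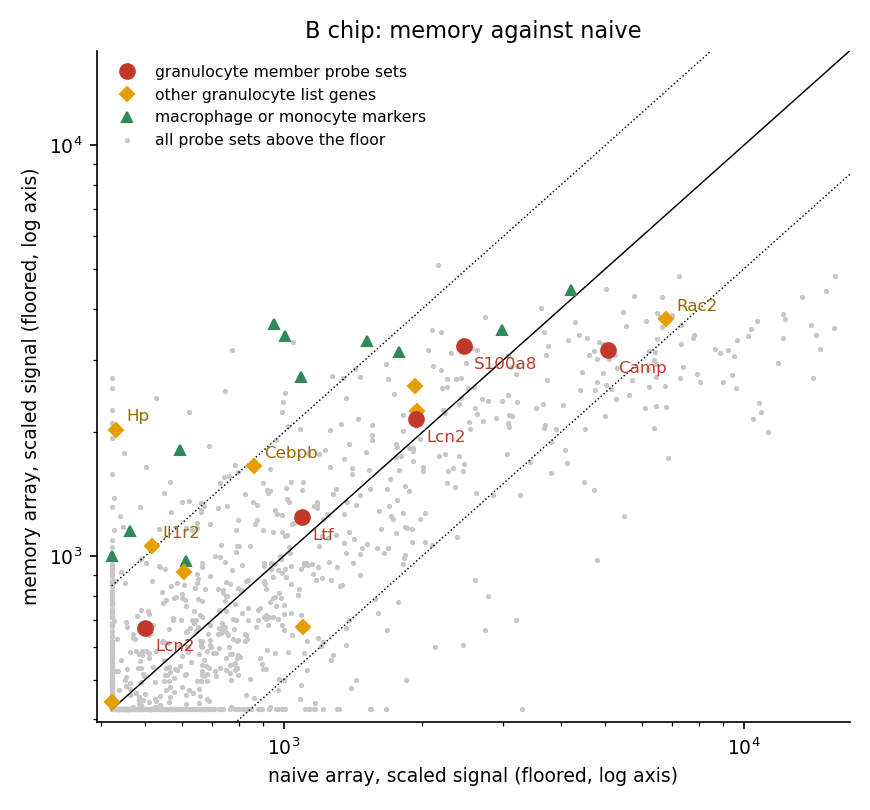
Scaled signals on the B chip (log axes, values under the floor set to it), memory against naive, with the line of equality solid and 2-fold dotted. The granulocyte probe sets lie between the dotted lines, and Hp and Il1r2 lie above them. Of the macrophage or monocyte markers 7 of 11 were called higher in memory, against 8.87% of all 462 named genes above the floor.

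On the memory A array the granulocyte genes fell on both sides of the limit. Of 34 list genes read there, 19 were above 184, against 29.5% of all 4775 named genes on that array. Ngp, neutrophilic granule protein, read 1811, Chil3, a chitinase-like protein of neutrophils and macrophages, 1076, and the elastase inhibitor Slpi 1124. Among receptors, Csf3r, the receptor for granulocyte colony-stimulating factor, read 608, the Fc receptor Fcgr3 784 and the GM-CSF receptor chain Csf2ra 345, while the chemokine receptor Cxcr2 read 28. Of the 4 receptors, 3 were thus above the limit. On the B chip the listed receptors Ly6g (314 in memory, 249 in naive) and Ptafr (322 in memory, 238 in naive) were under the floor. Of the NADPH oxidase, which makes superoxide, Ncf4 read 206 and Ncf1 and Cyba read -5 and -101. On the B chip the oxidase subunit Cybb was under the floor too (132 in memory, -12.1 in naive).

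Of the 5 cytosolic genes on the memory A array, 4 exceeded the limit. S100a6 and S100a4, relatives of the calprotectin subunits that T cells also make, read 1853 and 469. On the B chip another S100a6 probe set was under the floor (357 in memory, 94.7 in naive). The cytokine gene Il1b read 838, the actin-bundling protein gene Lcp1 of all leukocytes 1659, and Anxa1 -28, although its B-chip probe set was above the floor. Of the transcription factors of granulocyte development, Spi1 (PU.1) read 377 and Cbfb 256, whereas Gfi1, Myb and Runx1 read 18, 32 and 40. On the B chip Cebpa (-118 in memory, -239 in naive) and Cebpd (179 in memory, -89.7 in naive) were under the floor. A B-chip Myb probe set was so as well (-17.9 in memory, -138 in naive). Of the receptors and partners of the members, the calprotectin receptors Emb and Bsg read 635 and 361, while a B-chip Bsg probe set was under the floor (31.8 in memory, 15.1 in naive). The receptor Ager read -21, the scavenger receptor Cd36 48 and the lipocalin-2 receptor Slc22a17 74, all under the limit.

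**Figure D4:**
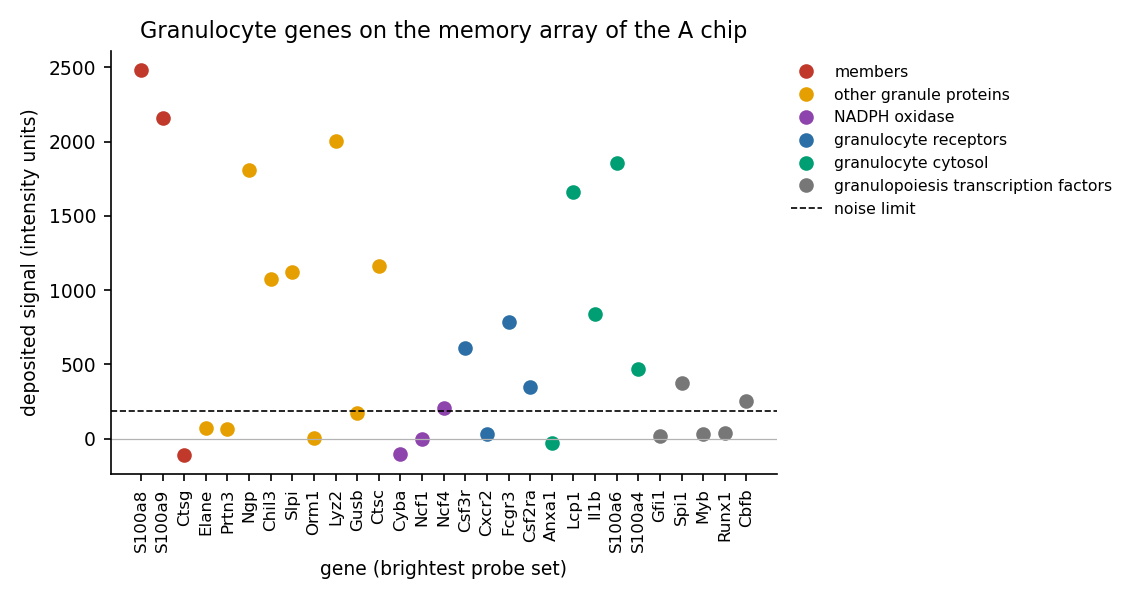
Deposited signal (intensity units, linear axis) of granulocyte genes on the memory array of the A chip, 1 point per gene and array, with the noise limit of 184 dashed. S100a8 and S100a9 stand at 2483 and 2162, and Ctsg, Elane and Prtn3 stand under the limit.

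Markers of other cells were read beside the members. Summed over the 5 genes on the B chip, the members' brightest probe sets gave 9928 in memory and 10714 in naive. Without Camp, a choice made after the values were seen, the other 4 gave 6748 in memory and 5653 in naive, so the order of the sums rested on Camp. The 11 macrophage or monocyte markers on that chip gave 29239 in memory and 15486 in naive, with 7 of 11 called higher, 0 lower and a median log2 ratio of 1.24. Of all 462 named genes above the floor, 8.87% were called higher and 8.66% lower. Of the 4 member genes above the floor 0 were called, and with 4 genes no contrast with the markers is drawn. Among the 7 markers called higher was Ly6c2 (3439 in memory, 1009 in naive), and whether T cells made it was not tested. The 6 T cell markers gave 5018 in memory and 8731 in naive, with 1 of the 5 above the floor, Thy1, called lower. Calls and sums in this paragraph used the trimmed-mean scaling alone. The lowess trend, -0.92 at the brightness of Camp, was not taken out of bright markers such as Thy1 and Cd74. No T cell, macrophage or monocyte marker was at or below 0 on either B array. On the memory A array 5 of 8 macrophage or monocyte markers were above the limit, while Mpeg1 (96), Marco (103) and Fcgr1 (113) were not. Another Mpeg1 probe set, on the B chip, read 3664 in memory and 954 in naive and was called higher. Neutrophil markers apart from the members were above noise for 1 of 2 genes on the B chip and 3 of 6 on the memory A array. Their part in the members' values was not tested. Markers of myeloid progenitors were above noise for 0 of 3 genes on the B chip and 0 of 3 on the memory A array, and eosinophil markers for 0 of 2 and 0 of 2. Mast cell or basophil markers were above noise for 0 of 3 on the B chip and for 2 of 8 on the memory A array, where the tryptase genes Tpsb2 and Tpsab1 read 253 and 239 and the carboxypeptidase gene Cpa3 -6. No platelet marker of the list had a probe set. Of 4 erythroid markers above the floor on the B chip, 1 was called higher and 2 lower, with sums of 6994 in memory and 18199 in naive. Of the dendritic cell list, the 4 above the floor were the MHC class II genes H2-Aa, H2-Ab1 and H2-Eb1 and the invariant chain gene Cd74. These are not particular to dendritic cells. H2-Ab1 was called higher and Cd74 lower, and the sums over all 5 on the chip were 10829 in memory and 16261 in naive. The fifth of these, Flt3, was under the floor (13.9 in memory, -22.2 in naive). B cell markers were above noise for 0 of 3 genes on the B chip and 1 of 5 on the memory A array.

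The genes whose pair of B-chip signals lay nearest to each member were found as the distance in log2 memory and log2 naive signal, over 2 arrays only. Glg1, Axl and Prdx1 lay nearest to S100a8, at distances from 0.060 to 0.20. Mark2, Eif4a2 and the granule proteoglycan gene Srgn lay nearest to Camp, at 0.057 to 0.14. Cox7c, Itgb2 and Rac1 lay nearest to Lcn2, at 0.058 to 0.099, and Ckm, Jun and Rab11b to Ltf, at 0.076 to 0.18. With 2 arrays, likeness in this sense means only a similar signal on each.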

How the data were processed

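Total RNA of the sorted cells was made into cRNA and hybridised to Affymetrix arrays, per the labels' protocols. Each probe set has a single deposited intensity, a whole number that can be negative. The software was not given in the sources used here. Deposited 2% trimmed means were already close (149 in memory and 149 in naive on A, 147 in memory and 145 in naive on B). Control probe sets (55 a chip) were left out. B-chip arrays were scaled to a common 2% trimmed mean (factors 0.993 for memory and 1.01 for naive), and the floor was set at percentile 95 of the absolute negative values on the noisier array. The noise limit on the A chip was the same percentile of its memory array. The naive B array set that floor, against 287 for the memory B array alone. Background subtraction and probe summarisation could not be varied.

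Symbols came from the platform annotation, updated by Entrez number. A single symbol was listed for 5560 probe sets of chip A and 2001 of chip B, several for 197 and 27, and none for 827 and 4567. Probe sets without a single symbol were not named. A gene was read by its brightest probe set. All 9 member probe sets carry the class letter s, used for probes that can match several transcripts. Named were all member probe sets, list genes past 2-fold on the B chip, and the first 6 of each list read on the A chip. List genes within 2-fold and list genes under noise on the B chip were added after their values were seen. So were the named marker genes and Lyz2, Ctsc and Gusb. The members and lists were chosen with earlier results of these data known. Alternatives were no scaling, median-ratio, quantile and lowess (span 0.4) normalization, the floor halved or doubled, and thresholds of 1.5-fold and 3-fold. The calls were tested on simulated data. The changes planted there were larger than 2-fold and lay in bright probe sets, and no intensity-dependent trend was simulated. Calls near 2-fold were thus not tested. The number of arrays limits the precision. Python 3.11.15, pandas 2.3.3, numpy 2.4.6 and statsmodels 0.14.6 were used.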

Additional observations from a re-analysis of the deposited data

How the results depend on the processing

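The median ratio of the members above the floor, 0.18 as reported, ran from 0.17 to 0.33 over the 6 other scalings and floors. The number of member probe sets past 2-fold was 0 as reported and 1 with quantile normalization (S100a8) and with a 1.5-fold threshold (Camp), and 0 under the others. The number of granulocyte list genes past 2-fold was 2 as reported, 3 with median-ratio scaling (Cebpb added) and 3 with quantile normalization (S100a8 added). It was 7 with the 1.5-fold threshold, 1 with the 3-fold threshold and 1 with the floor doubled. Of the 7, Cebpb, Hp, Il1r2 and Lrp1 were higher in memory, and Anxa1, Camp and Rac2 lower. The share of all genes past 1.5-fold was not counted. Of the named genes, Camp turned to 0.20 and 0.25, and Rac2 to 0.48 and 0.40, with quantile and lowess normalization, the cause of which was not tested. On the A chip 2 of 3 member probe sets were above the limit with it halved, doubled, or set at the 99th percentile. The median of all probe sets above the floor was -0.12 as reported, -0.018 with median-ratio, -0.033 with quantile and -0.055 with lowess scaling. All B-chip calls numbered 67 higher and 113 lower as reported, 112 and 207 with the floor halved, and 25 and 74 with it doubled. No member probe set lacks a class letter, so that alternative gave no value. Leaving out 1 array would leave no comparison. No paired analysis was possible because each group had 1 array a chip and the replicate numbers were given in accession order.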
